A study of Drosophila melanogaster with 10 samples.

Results

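The odorant-binding protein (Obp) genes of Drosophila melanogaster were followed in larval brain RNA, taking every gene row whose whole symbol is Obp, a number and lower-case letters. The rule finds 51 of 17895 gene rows, and 14 of the 51 passed the filter on low counts that precedes the test. Bulk RNA-seq was made from whole brains of larvae in the third instar, with 4 control libraries, whose library names begin with yw, and 4 libraries labelled vostok, the mutant of CG11504. The labels name no allele for vostok, no stage within the instar, no sex and no genotype for the control beyond these library names. Whether the 4 repeats of a group are separate dissections is not said either, so p-values measure only a spread between libraries that may be technical. The 2 vostok Micro-C libraries of the series were not analysed here.

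Odorant-binding proteins are small secreted proteins, held in shape by conserved cysteines, that carry hydrophobic molecules in a fluid. In sensory hairs of the antenna, palps and larval head organs, support cells secrete them into the lymph around the receptor neurons, where they bind odorants or tastants. Several members are made outside sensory organs, in glia, fat body or the male reproductive tract, and Obp44a is known from glia of the fly brain, where it binds fatty acids. The numbers in the symbols give the numbered division of the polytene map, so members with the same number lie in the same stretch of a chromosome. They need not be side by side: Obp83b and Obp83cd are 131316 bases apart.

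Levels are CPM, counts divided by each library's TMM-scaled size, and ± is the SD over the 4 libraries of a group. Log2 fold changes are vostok over control and come with their SE. Calls rest on an adjusted p below 0.05 in the quasi-likelihood test of edgeR, corrected by Benjamini-Hochberg over 10749 genes. Libraries held 57613848 to 81796126 estimated counts over all rows, repeat entries included. At the TMM-scaled library sizes a floor of 3 counts is 0.0371 to 0.0519 CPM. That floor covers counting error only. CG11504 RNA was higher in vostok libraries (60.1 ± 4.99 in control and 73.6 ± 1.93 CPM in vostok, n = 4 each, adjusted p = 0.0143), so it does not check the labels. The pigment gene y was at 0.846 ± 0.136 in control and 123 ± 19.6 CPM in vostok libraries, and a difference in strain background cannot be told apart from the genotype. The 8 neuronal markers were all detected, with summed levels of 1400 to 2918 CPM in control and 2573 to 2991 CPM in vostok libraries. The 12 hemocyte (blood cell) markers were detected too and varied widely, at a summed 363 to 6318 CPM in control and 245 to 947 CPM in vostok libraries. None of the markers of neurons, glia, blood cells, fat body, cuticle, salivary gland, gut, antennal and eye disc or ring gland was at 0 in all 8 libraries.

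Almost all Obp RNA in the brain libraries came from a pair of genes, Obp44a and Obp99a. In vostok brains both of these fell, while Obp83a, Obp58b and Obp50e, close to silent in control brains, rose. Of the 14 tested members, 3 were called higher, 2 lower and 9 did not pass. Over all tested genes 28.3% were called, 12.1% higher and 16.2% lower. The share of all genes called ran from 10.3% with a hemocyte covariate to 48.5% without control replicate 2. With the covariate, 3 of 14 tested members were called higher and 2 lower. Without control replicate 2, 6 of 17 tested members were called higher and 3 lower. The 5 members stayed called in both fits, but how the members' count compares with the background depends on the setting. The groups did not overlap for 5 members, the same 5 that were called, 3 with vostok above and 2 with vostok below, against 33.2% of all tested genes (16.4% above and 16.8% below). The median log2 fold change was 0.18 over the tested members and -0.01 over all tested genes. The counts and the median of the members include Obp58b and Obp50e, which passed the filter through vostok libraries alone.

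**Figure D1:**
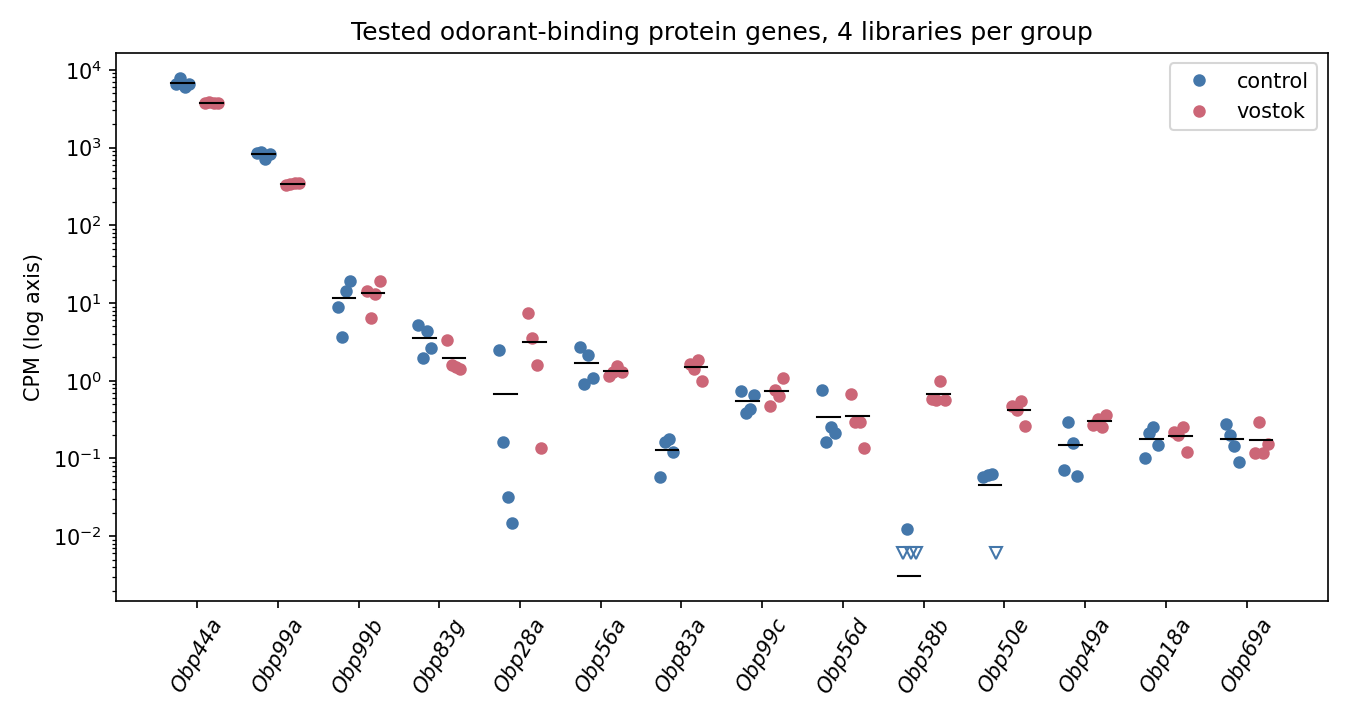
CPM on a log axis of the 14 tested odorant-binding protein genes, 1 point per library, with a line at each group mean. Open triangles stand for libraries with 0 counts and are placed below the other points, since 0 has no place on a log axis. The groups are apart for Obp44a, Obp99a, Obp83a, Obp58b and Obp50e.

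Obp44a was the most abundant member. It was at 6474, 7863, 6072 and 6538 CPM in control replicates 1 to 4 and at 3774, 3828, 3718 and 3748 CPM in vostok replicates 1 to 4. Each vostok library lay below each control library, and the vostok libraries lay closer together than the control libraries. The means were 6737 ± 779 and 3767 ± 46.7 CPM (n = 4 each), a log2 fold change of -0.84 ± 0.09 (95% interval -1.04 to -0.64, edgeR adjusted p = 5.02e-04), so that control brains had 1.79-fold more. The call held without control replicate 2, the highest library (-0.76 ± 0.05, adjusted p = 1.93e-04). In bulk RNA, fewer cells of a type and less RNA per cell cannot be told apart. The gene lies on 2R, 8134170 to 8135315 (Release 6), and shares 205 bases of its span with Pabp2, a gene of nuclear poly(A) binding, with levels of 291 ± 13.7 (control) and 287 ± 14.2 CPM (vostok, adjusted p = 0.784). The strand setting of the counting is unknown here, so reads of the shared stretch could have gone to either gene.

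Obp99a followed. It was at 849, 864, 708 and 837 CPM in control replicates 1 to 4 and at 329, 338, 345 and 351 CPM in vostok replicates 1 to 4. Again no vostok library reached the lowest control library. Control brains had 2.39-fold more (814 ± 71.8 and 341 ± 9.51 CPM, log2 fold change -1.26 ± 0.07, 95% interval -1.43 to -1.09, edgeR adjusted p = 3.94e-05). Obp99a lies on 3R, 29671657 to 29672334, 325565 bases from CG11504.

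The pair did not fall equally. Per kilobase of annotated gene span, the level of Obp44a was 4.51, 5.39, 5.08 and 4.62 times that of Obp99a in control replicates 1 to 4. In vostok replicates 1 to 4 it was 6.79, 6.71, 6.37 and 6.33 times as high. The ratio was higher in each vostok library than in each control library. The log2 ratio of their CPM rose from 3.05 ± 0.12 to 3.47 ± 0.05 (difference 0.42, exact permutation test, two-sided, n = 4 each, p = 0.0286, the smallest that 4 against 4 can give). This ratio was chosen after its values were seen, with the groups already apart, so its p-value adds nothing to that separation. The family's summed level, most of it from this pair, was 7571 ± 822 CPM in control and 4133 ± 40 CPM in vostok libraries. The other 49 members together were at 19.5 ± 7.37 and 25.6 ± 5.8 CPM, with 8.65 to 24.9 CPM in control and 18.6 to 32.5 CPM in vostok libraries, so these sums overlapped.

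Glial markers were set beside Obp44a because it is known from glia. Of the 4 pan-glial markers 1 was called, loco (91.2 ± 10 in control and 74.1 ± 3.57 CPM in vostok, log2 fold change -0.30 ± 0.08, edgeR adjusted p = 0.0334), and the list summed to 574 to 773 CPM in control and 566 to 601 CPM in vostok libraries. The glial identity factor repo was at 91.9 and 95.1 CPM and did not pass (adjusted p = 0.656). The 8 astrocyte and neuropil glia markers summed to 393 to 670 and 500 to 592 CPM, with 1 higher, the peptidase gene Nep1 (19.4 ± 4 and 27.6 ± 0.621 CPM, adjusted p = 0.0301). The 4 cortex glia markers summed to 341 to 438 and 451 to 492 CPM, with 1 higher, the potassium-dependent exchanger zyd (84.8 ± 7.89 and 149.6 ± 4.81 CPM, adjusted p = 2.47e-04). Of the 7 surface glia markers, genes of the blood-brain barrier, 3 were lower and 2 higher, and they summed to 322 to 403 and 301 to 340 CPM. The transporter gene Mdr65 fell from 88.7 ± 6.24 to 55.4 ± 3.44 CPM (log2 fold change -0.68 ± 0.07, adjusted p = 4.90e-04) and the receptor gene moody from 37.3 ± 2.65 to 25.8 ± 3.19 CPM (-0.53 ± 0.09, adjusted p = 0.00635), both with the groups apart. The junction gene Gli was lower too (73.8 ± 26.4 and 34.8 ± 13.7 CPM, -1.08 ± 0.34, adjusted p = 0.0475), with groups that overlapped. Higher were Indy (44.7 ± 8.21 and 66.6 ± 4.24 CPM) and Oatp58Dc (21.7 ± 1.78 and 27.4 ± 2.44 CPM). The pan-glial, astrocyte and surface glia sums overlapped between the groups, and the cortex glia sum lay higher in vostok libraries. The part of surface glia RNA in the lower level of Obp44a was not tested.

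Of the 12 hemocyte markers 1 was called lower, and 9 were lower at an unadjusted p below 0.05. Their sums overlapped, with control replicate 2 at 363 CPM, below vostok replicates 1 to 3 at 947, 472 and 523 CPM. With the mean of the hemocyte markers as a covariate, the log2 fold change was -0.95 ± 0.09 for Obp44a (adjusted p = 7.30e-04) and -1.35 ± 0.08 for Obp99a (adjusted p = 1.32e-04). Without control replicates 1 and 3 together they were -0.94 ± 0.08 and -1.32 ± 0.05. The falls were as large in that fit, but it kept control replicate 4, whose hemocyte sum of 1879 CPM was above every vostok library. The omission therefore did not level the hemocyte sums between the groups. The part of blood cell RNA in these falls was not tested beyond these fits. The 8 fat body markers, set beside Obp99a, had no call in edgeR's test (2 higher at an unadjusted p below 0.05 and 2 with DESeq2) and summed to 276 to 643 CPM in control and 356 to 676 CPM in vostok libraries, which overlap.

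**Figure D2:**
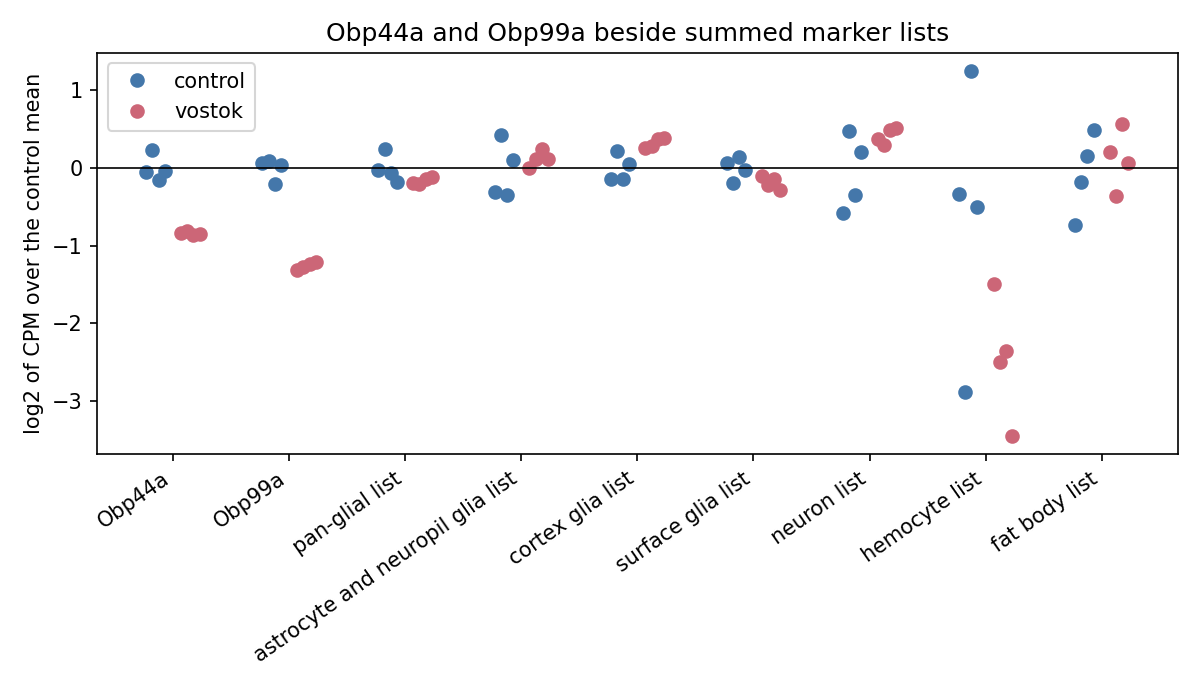
Log2 of CPM over the control mean in each library, for Obp44a and Obp99a and for the summed CPM of marker lists, 1 point per library. Obp44a and Obp99a are lower in all 4 vostok libraries than in any control library, whereas the pan-glial, astrocyte, surface glia, neuron and fat body sums overlap. Hemocyte sums range from 363 to 6318 CPM among control libraries alone.

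Obp83a, known as an antennal protein of hairs that detect pheromones, was the called member with the highest vostok level among those that rose. It was at 0.0576, 0.161, 0.176 and 0.12 CPM in control replicates 1 to 4 and at 1.67, 1.44, 1.83 and 1.00 CPM in vostok replicates 1 to 4. Every vostok library was above every control library. The log2 fold change was 3.51 ± 0.37 (95% interval 2.66 to 4.36, edgeR adjusted p = 5.54e-04), or 11.4-fold, resting on 36 counts over the control and 398 over the vostok libraries. The gene lies on 3R, 5972155 to 5975245. Its partner Obp83b, 931 bases further along, is made in overlapping hairs of the antenna. It had 0 counts in each control library and 8, 1, 7 and 0 counts in vostok replicates 1 to 4, and did not pass the filter.

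Obp58b (2R, 22704704 to 22705639) had 0, 1, 0 and 0 counts in control replicates 1 to 4 and 35, 46, 68 and 33 counts in vostok replicates 1 to 4. It was close to silent in one group and present in each library of the other, at 0.681 ± 0.214 CPM. The ratio of vostok to control, from 182 counts against 1, was 191 with an exact Clopper-Pearson 95% interval of 33.8 to 7575 that covers counting error only. The edgeR adjusted p was 2.49e-04; the fitted log2 fold change of 6.99 ± 0.61 depends on the prior count. Its neighbours Obp58c, 232 bases away, and Obp58d had 0 and 3 counts over the control libraries and 2 and 1 over the vostok libraries. Obp59a, on the other side at 917 bases and known for humidity sensing in the antenna, had 6 and 9 counts over the groups.

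Obp50e (2R, 14374462 to 14375385) had 4, 5, 4 and 0 counts in control and 28, 34, 37 and 15 counts in vostok replicates 1 to 4. The lowest vostok library was above the highest control library. The means were 0.0459 ± 0.0307 and 0.423 ± 0.121 CPM (log2 fold change 3.15 ± 0.58, 95% interval 1.82 to 4.48, edgeR adjusted p = 0.00736). The members beside it, Obp50a, Obp50b, Obp50c and Obp50d, had at most 1 count over all 8 libraries each. Obp50b and Obp50c have the same annotated span, and their deposited values of 0.5 show a read divided between them, so they cannot be told apart.

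No control library passed the filter's level of 0.147 CPM (unscaled) for Obp58b or Obp50e, and all 4 vostok libraries did. These members could enter the test only by being high in vostok libraries, so their counts among the calls support nothing about the family. For Obp83a 2 control and 4 vostok libraries passed that level. The 5 calls each held in all 8 fits with 1 library left out, with a highest adjusted p of 0.0038 for Obp44a, 6.05e-04 for Obp99a, 0.00348 for Obp83a, 0.00163 for Obp58b and 0.0254 for Obp50e. Among tested genes of all kinds with a mean under 1 CPM, 29.2% were higher and 6.47% lower in vostok libraries. The 8 tested members at that level had 3 higher and 0 lower with edgeR. With DESeq2 and at an unadjusted p below 0.05 the lower count was 0 as well. The 3 higher members include Obp58b and Obp50e, so this tally is not read against those shares.

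**Figure D3:**
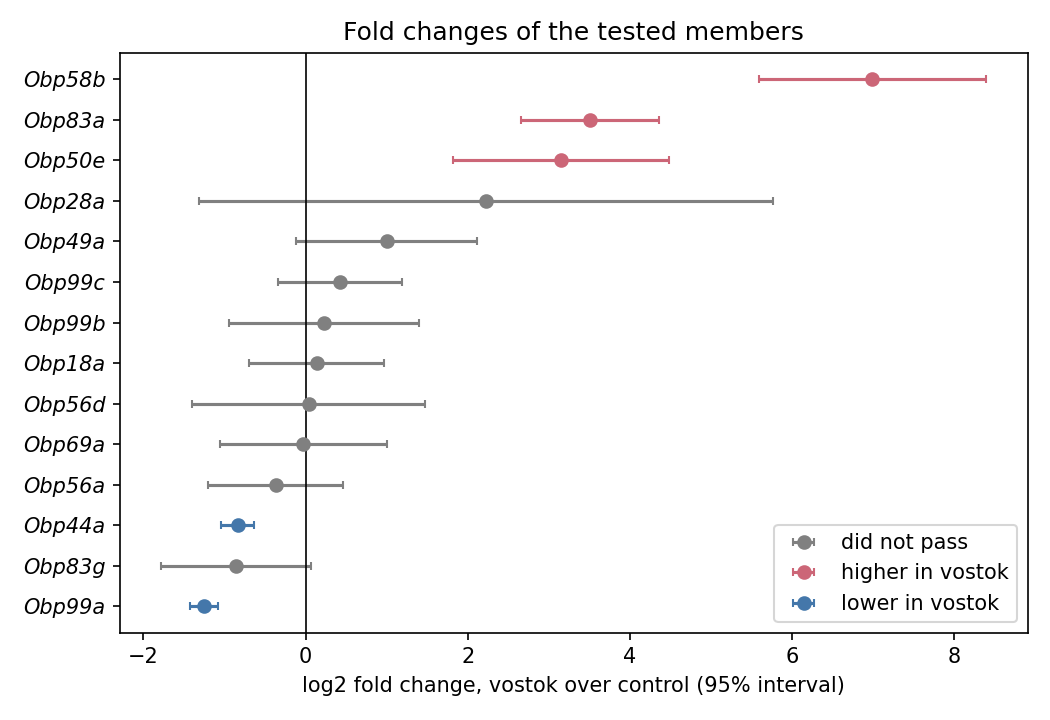
Log2 fold change of vostok over control for the 14 tested members, with 95% intervals from edgeR, coloured by call. Obp58b, Obp83a and Obp50e lie above 0 and Obp44a and Obp99a below it, each with an interval clear of 0. Obp28a has the widest interval, -1.31 to 5.76, and the value of Obp58b rests on 1 control count and depends on the prior count.

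Of the 9 tested members that did not pass, 4 had at least 1 CPM in a group. Obp99b, known in the adult fly as a male-biased gene of head fat body, was at 8.82, 3.63, 14.2 and 19.1 CPM in control and 14.5, 6.39, 13.1 and 19.4 CPM in vostok replicates 1 to 4. The groups overlapped over most of their range (log2 fold change 0.22 ± 0.51, 95% interval -0.95 to 1.39, edgeR adjusted p = 0.746). Replicate 2 was the lowest library of both groups and replicate 4 the highest.

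Obp83g was at 5.20, 1.95, 4.35 and 2.64 CPM in control and 3.31, 1.58, 1.52 and 1.40 CPM in vostok replicates 1 to 4. Vostok replicate 1 stood apart from its group and lay within the control range. The log2 fold change was -0.85 ± 0.40 (95% interval -1.78 to 0.07, edgeR adjusted p = 0.133). It passed without control replicate 2 (-1.06, adjusted p = 0.048) and shrank to -0.23 without control replicates 1 and 3 together and to -0.17 with the hemocyte covariate. Those 2 libraries are its highest controls. The part of blood cell RNA in it was not tested beyond these fits.

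Obp28a, an abundant protein of adult antennal hairs, had the widest interval among the 14 tested members. It was at 2.49, 0.161, 0.032 and 0.015 CPM in control and 7.41, 3.55, 1.58 and 0.138 CPM in vostok replicates 1 to 4, from 1 to 445 counts. In both groups the level fell from replicate 1 to replicate 4, though same-numbered libraries did not deviate together over all genes. On a log scale the range within each group was wider than the distance between the groups (log2 fold change 2.23 ± 1.53, 95% interval -1.31 to 5.76, edgeR adjusted p = 0.277). Without control replicate 1, its highest control, the value was 5.41 ± 1.48 (adjusted p = 0.0455), and without vostok replicate 1 it was 1.41 ± 1.62 (adjusted p = 0.530), so leaving out 1 library changed the call.

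Obp56a was at 2.75, 0.906, 2.11 and 1.08 CPM in control and 1.15, 1.29, 1.56 and 1.30 CPM in vostok replicates 1 to 4. The vostok values lay inside the control range (log2 fold change -0.37 ± 0.36, 95% interval -1.20 to 0.47, edgeR adjusted p = 0.439). The sign turned without control replicates 1 and 3 together (0.42) and with the hemocyte covariate (0.14).

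Of the 14 tested members, control replicate 1 was the highest control library for 6 (Obp28a, Obp56a, Obp56d, Obp69a, Obp83g and Obp99c) and the lowest, ties included, for 3 (Obp18a, Obp58b and the antennal Obp83a). Vostok replicate 1 was the highest vostok library for 3 (Obp28a, Obp56d and Obp83g) and the lowest for 4 (Obp56a, Obp69a, Obp99a and Obp99c). Control replicates 2, 3 and 4 were the highest control library for 4, 3 and 1 members. Vostok replicates 2, 3 and 4 were the highest vostok library for 2, 5 and 4, so vostok replicate 1 did not stand out by this count. Obp56d, known from chemosensory hairs, was at 0.749, 0.161, 0.256 and 0.21 CPM in control and 0.683, 0.297, 0.295 and 0.138 CPM in vostok replicates 1 to 4. The summed level of 10 transcription factors of the antennal and eye disc was also highest in control replicate 1 (922 CPM, with 604, 844 and 748 in control replicates 2 to 4) and, within vostok, in replicate 1 (640 CPM, with 529, 470 and 516 in the others). A peak in control replicate 1 was not particular to the disc list. The summed cuticle markers were at 326 CPM there and 323 CPM in control replicate 3, but within vostok were highest in replicate 4 (216 CPM). Os-C, another secreted antennal protein, was at 1.69 CPM in control replicate 1 against 0.211 to 0.592 CPM in the other controls, but at 0.716 CPM in vostok replicate 1 within a vostok range of 0.236 to 1.26 CPM. Of the 10 disc factors 5 were called lower in vostok libraries and 0 higher, with 0 higher also by DESeq2 and at an unadjusted p below 0.05. The part of disc RNA in these members was not tested.

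The other tested members were under 1 CPM in both group means and did not pass. Control and vostok means of Obp99c were 0.553 ± 0.171 and 0.739 ± 0.264 CPM (edgeR adjusted p = 0.341). Obp49a, which in taste hairs lets bitter compounds suppress the sweet response, was at 0.147 ± 0.11 and 0.301 ± 0.0517 CPM (log2 fold change 1.00 ± 0.49, adjusted p = 0.143) and passed without control replicate 2. Obp56d, Obp18a and Obp69a had log2 fold changes of 0.04 ± 0.62, 0.14 ± 0.36 and -0.03 ± 0.45. The span of Obp69a lies within CG32104, which was at 27.1 CPM in control libraries, so its low counts are uncertain without the strand setting. The span of Obp99c shares 23 bases with Gycalpha99B.

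Of the 37 members that did not pass the filter, 4 had 0 counts in all 8 libraries: Obp19a, Obp51a and Obp57a, and Obp50b after rounding. The other 33 had 1 to 67 counts in all, at most 23 in a library and at most 0.21 CPM in a group mean. They held 172 counts in control and 392 in vostok libraries together. Counts appeared in vostok libraries alone for 13, in control libraries alone for 2 and in both for 18. Of all 4978 untested gene rows with 1 to 67 counts, 988 had counts in vostok libraries alone, 509 in control libraries alone and 3481 in both, with 31040 counts in control and 49961 in vostok libraries. With 1 or 2 counts a gene's presence in a group can be a matter of counting error. Control libraries held 63983177 to 81796126 estimated counts and vostok libraries 57613848 to 78948403. In vostok libraries 31 to 37 members had a count and 23 to 28 reached 3 counts, against 22 to 27 and 15 to 20 in control libraries. The same counts over all gene rows are not given here, so these are not read as a trait of the family.

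Of these rows Obp56c, Obp56h, Obp47b and Obp99d were picked after their values were seen. Among the 33 untested members with counts, all vostok libraries lay above all control libraries in CPM only for Obp56h, Obp47b and Obp99d. Of all untested gene rows with 1 to 67 counts, 10.4% were apart in this way. For Obp99d the highest control was 0.101 CPM (replicate 1) and the lowest vostok library 0.103 CPM (replicate 3), each from 7 counts. Obp56c had 4, 1, 1 and 0 counts in control and 12, 20, 23 and 3 in vostok replicates 1 to 4, which overlap. Obp56h, known for effects on male courtship and mating, had 0, 3, 0 and 3 counts in control and 12, 15, 8 and 13 in vostok replicates 1 to 4. Obp47b had 2, 1, 1 and 1 counts in control and 7, 7, 10 and 4 in vostok replicates 1 to 4. Obp99d had 7, 8, 6 and 6 counts in control and 7, 12, 7 and 14 in vostok replicates 1 to 4. With no filter beyond 1 count Obp56c, Obp56h and Obp47b were called higher (log2 fold changes 3.17, 2.98 and 2.41, edgeR adjusted p = 0.0324, 0.0326 and 0.0168), which brought the members called higher to 6 of 47 tested, where 8.89% of all genes were called higher. Obp99d did not pass there (0.63, adjusted p = 0.272). Obp57d and Obp57e, known for the taste of fatty acids and the choice of egg-laying sites, had 34 and 2 counts in control and 22 and 0 in vostok libraries. The seminal fluid members Obp22a, Obp51a and Obp8a had 5, 0 and 4 counts over all libraries.

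**Figure D4:**
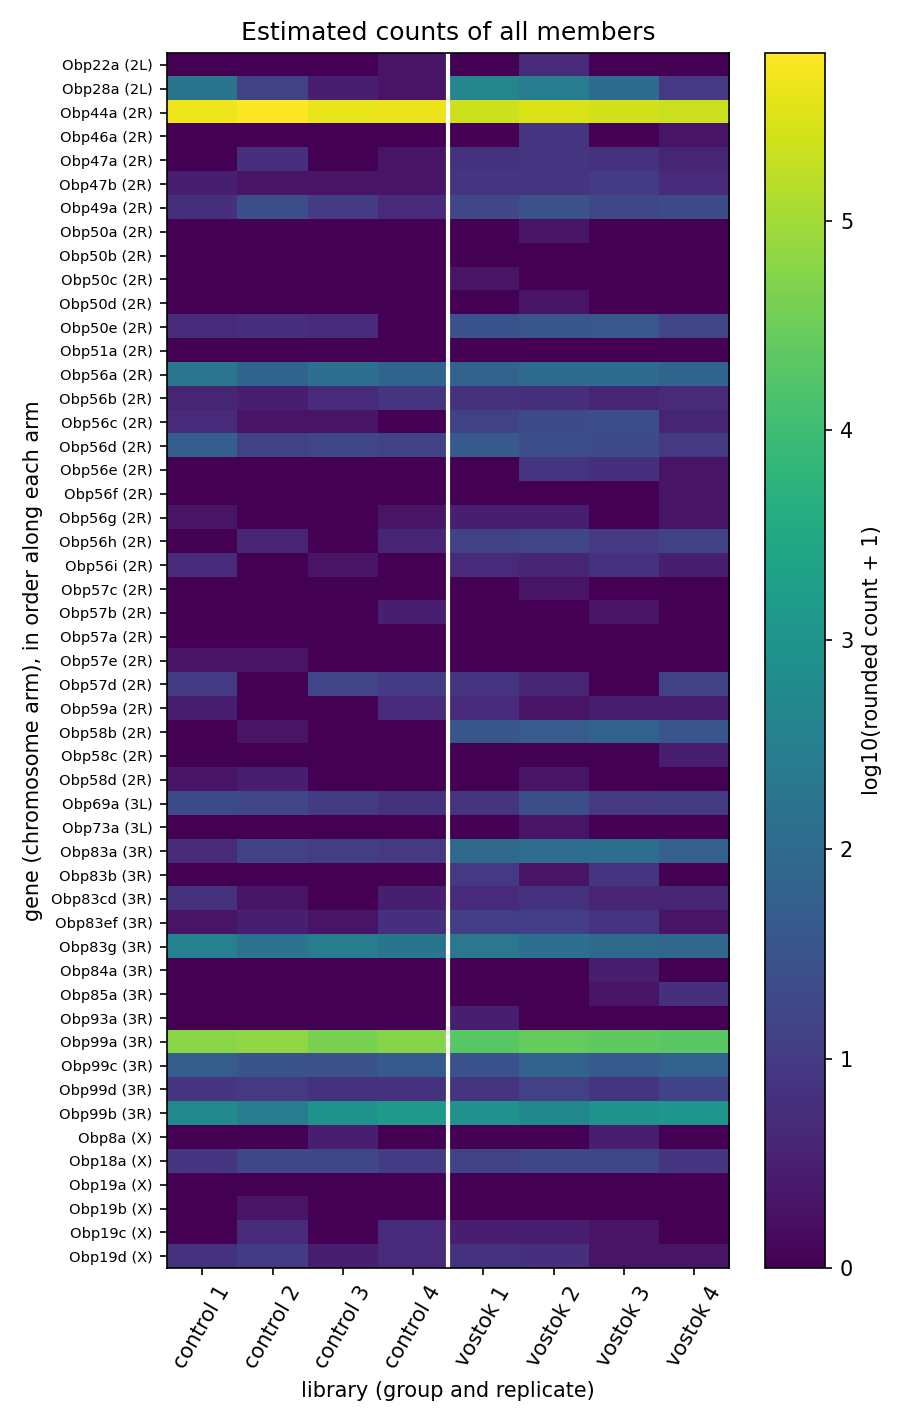
Rounded estimated counts, as log10 of count plus 1, for all 51 members (rows, in order along each chromosome arm) in the 8 libraries (columns, control left of the white line). Obp44a, with 216689 to 633886 counts, and Obp99a, with 19735 to 69621, stand out from all other rows. Obp58b, Obp83a and Obp50e are darker in the 4 control columns than in the 4 vostok columns.

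Per kilobase of annotated span, introns included, the order of levels was Obp44a, Obp99a and Obp99b in both groups. In control libraries these were 5879 ± 680, 1201 ± 106 and 17.8 ± 10.4 CPM per kb, followed by Obp83g (5.59 ± 2.38), Obp56a (2.18 ± 1.11) and Obp28a (1.17 ± 2.11). The last 3 are within each other's spread or close to it. In vostok libraries the first 3 were at 3287 ± 40.8, 502.3 ± 14 and 20.7 ± 8.34 CPM per kb. Obp28a (5.51 ± 5.49), Obp83g (3.09 ± 1.44) and Obp56a (1.68 ± 0.22) came next and overlapped. Obp58b moved from place 33, resting on 1 control count, to place 7. Obp83a moved from place 17, resting on 36 control counts, to place 8. Such low places in control libraries are set by few counts. Obp83a, whose span of 3091 bases is long for the family, ranks lower on this scale than by CPM.

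Called members stood beside members that did not pass or were not tested. Of the 51 members 29 are on 2R, 12 on 3R, 6 on X and 2 each on 2L and 3L. In division 99, Obp99a fell, Obp99c, 13401 bases away, and Obp99b did not pass, and Obp99d was not tested. In division 83, Obp83a rose and Obp83g did not pass. In division 56, 2 of 9 members were tested and 0 were called by edgeR or DESeq2, with 0 at an unadjusted p below 0.05. In divisions 19 and 57 no member was tested, and in divisions 50 and 58 a single one was. Whether neighbours differ in their response was not tested.

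The tested genes nearest to the 5 called members on each side were 10 non-members, of which 2 were called higher, 1 lower and 7 not called. Of all tested genes 28.3% were called. Beside Obp99a, ppk30, a channel gene of the pickpocket family 178 bases away, was at 0.0966 and 0.425 CPM and was called higher (log2 fold change 2.12 ± 0.23, edgeR adjusted p = 6.89e-04), opposite to Obp99a. On its other side ppk19, 121 bases away, was at 0.358 and 0.302 CPM and did not pass (adjusted p = 0.525). Beside Obp44a, Pbp49 (45.8 and 48 CPM) and Lpin, the lipin phosphatase gene (237 and 243 CPM), did not pass (adjusted p = 0.499 and 0.836). Beside Obp58b, jbug, the gene of a filamin, fell (120 and 47 CPM, adjusted p = 0.0151), and beside Obp50e the peptide receptor gene Dh44-R1 rose (4.53 and 7.67 CPM, adjusted p = 0.0424).

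Other genes of odorant transport and small lipid carriers were taken from a list of 46, of which 18 were tested, 5 called higher, 3 lower and 10 not called (median log2 fold change 0.25), where 12.1% of all tested genes were higher and 16.2% lower. Lush, an Obp under another name that carries the pheromone vaccenyl acetate, had 9, 2, 10 and 9 counts in control and 0 counts in each vostok library, and was not tested. Its control mean of 0.112 CPM was at least 2.45-fold higher than the floor of 3 counts per vostok library. The olfactory coreceptor gene Orco was at 0.423 ± 0.213 and 0.862 ± 0.264 CPM (edgeR adjusted p = 0.1), and Ir25a, a coreceptor of ionotropic receptors, at 0.413 ± 0.135 and 0.588 ± 0.083 CPM (adjusted p = 0.182).

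Among the abundant lipid carriers, fabp, the fatty acid binding protein gene, fell (1845 ± 44 in control and 1441 ± 35.2 CPM in vostok, log2 fold change -0.36 ± 0.05, edgeR adjusted p = 0.00224). The acyl-CoA binding protein gene Acbp2 fell from 23 ± 3.9 to 1.31 ± 0.0967 CPM and CheB98a, of a family of pheromone-sensing taste proteins, from 0.913 ± 0.34 to 0.062 ± 0.0243 CPM. The sterol carriers Npc2b (14.2 ± 2.08 and 30.7 ± 4.89 CPM) and Npc2a (113 ± 4.83 and 139 ± 9.05 CPM), the lipocalin NLaz (8.36 ± 2.16 and 22.8 ± 3.04 CPM) and CheB42c (2.42 ± 0.323 and 3.84 ± 0.147 CPM) rose. The antennal protein gene a10 rose from 0.476 ± 0.247 to 1.21 ± 0.199 CPM (adjusted p = 0.0294), a call that was lost when any library other than control replicate 2 was left out (adjusted p up to 0.0818, without vostok replicate 2), with the hemocyte covariate (adjusted p = 0.128) and without control replicates 1 and 3 together (adjusted p = 0.115). The call of CheB42c was lost with the hemocyte covariate (adjusted p = 0.0842) and without control replicates 1 and 3 together (adjusted p = 0.0753).

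**Figure D5:**
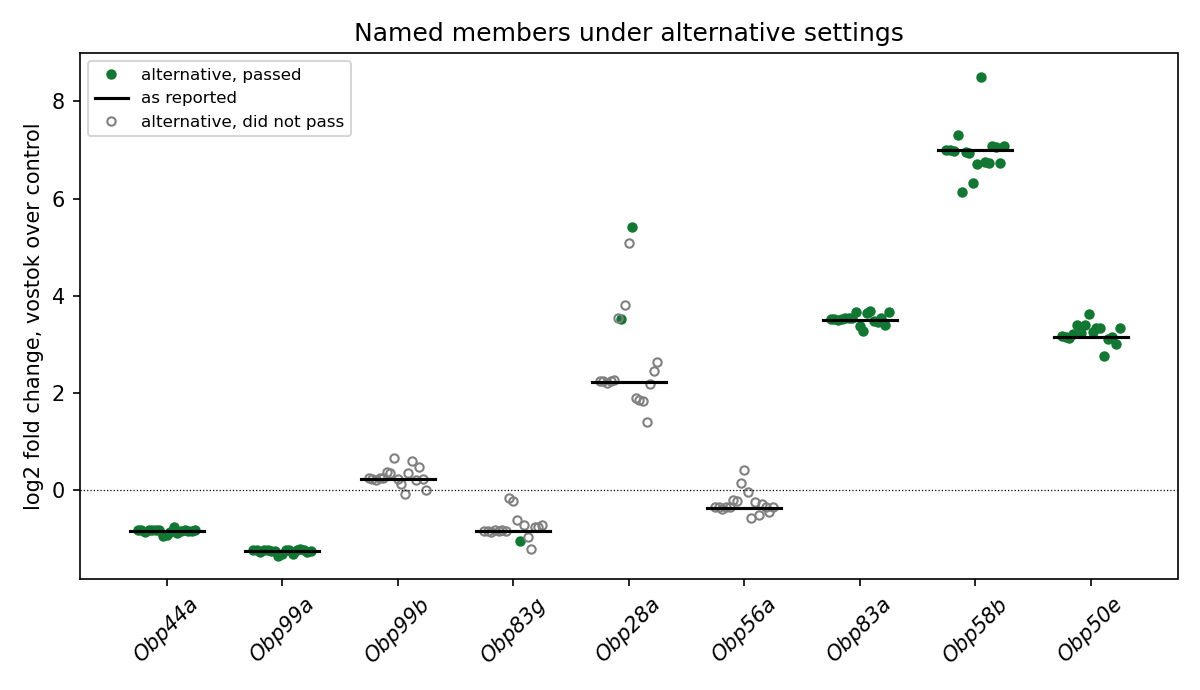
Log2 fold change of vostok over control for the 9 members with at least 1 CPM in a group or a call, as reported (lines) and under each alternative (points, filled where the member passed at an adjusted p below 0.05). Points of Obp44a, Obp99a, Obp83a, Obp58b and Obp50e are filled throughout, whereas those of Obp28a range from 1.41 to 5.41 and those of Obp99b and Obp56a cross 0.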

How the data were processed

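Estimated counts per gene, deposited by the authors in 1 table with a column per library, are not scaled between libraries; salmon is named per the file name. BWA and dm6 are listed per the submitters' processing notes without a role. The salmon version, annotation release and strand handling were not given in the sources used here. Splitting of reads between similar or overlapping genes can move counts.

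Counts of the 17895 gene rows were rounded, filtered with filterByExpr (min count 10), scaled with TMM and tested with edgeR 4.0.16 (quasi-likelihood, robust, genotype only) in R 4.3.3, over 4 control and 4 vostok libraries, with Benjamini-Hochberg adjustment. Repeat entries were left out. The test was checked on simulated data. Positions come from the RefSeq table of Release 6, the assembly dm6 names, and all 51 members matched by symbol. Genes with a mean of at least 1 CPM in a group, or a call, are named with their values. Alternatives used RLE or no factors, other count filters, DESeq2 1.42.0, limma 3.58.1 voom, a replicate block, a hemocyte covariate and fewer libraries. The members, lists and tests were chosen with earlier results of these data known; GLaz and rumpel were respelled to the symbols of the deposited table. Figures were drawn with matplotlib 3.10.9.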

Additional observations from a re-analysis of the deposited data

Results flagged for a closer look

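In groups of 4 libraries, a value whose gap to the nearest other exceeded Dixon's 95% critical share of the group's range was marked; 48 groups were tried and 7 values marked; chance marks about 1 in 20. Obp28a stood at 2.49 CPM in control replicate 1 (next highest control 0.161 CPM) and Obp56d at 0.749 CPM in the same library (next 0.256 CPM). Obp83g stood at 3.31 CPM in vostok replicate 1 (next 1.58 CPM). Obp58b stood at 1.00 CPM in vostok replicate 3 (next 0.583 CPM) and, from a single count, at 0.0124 CPM in control replicate 2, with 0 in the other controls. Obp50e was at 0 CPM in control replicate 4 (next lowest 0.0576 CPM), and CheB42c at 2.90 CPM in control replicate 2 (next 2.31 CPM).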

How the results depend on the processing

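Obp44a and Obp99a stayed called lower and Obp83a called higher in all 17 alternatives. Obp58b and Obp50e stayed called higher in the 16 that tested them, since neither passed the filter of 1 CPM in 4 libraries. Of the 3 members called higher, that filter left 1, no filter gave 6, omission of control replicates 1 and 3 together gave 5, and omission of single libraries gave 3 to 6; the members called lower numbered 2 to 3. The number of genes called was 1564 with the replicate block, 1105 with the hemocyte covariate, 1593 without control replicates 1 and 3 together, and 1521 (without vostok replicate 2) to 5333 (without control replicate 2) with 1 library left out, against 3040. Same-numbered libraries did not deviate together (correlations 0.18, 0.00712, 0.0388 and -0.0473 for numbers 1 to 4, and no vostok library correlated best with its own number), so the block is no paired analysis. With the block Obp28a passed (3.52, adjusted p = 0.0419) and CheB42c and Npc2a did not (adjusted p = 0.0545 and 0.059). Carrier genes called higher fell from 5 to 3 with the replicate block, with the hemocyte covariate and without control replicates 1 and 3 together, and were 4 to 7 with single libraries left out. Those called lower rose from 3 to 5 with DESeq2 and were 3 to 5 with single libraries left out. With 1 library left out Obp99b ranged from -0.0796 (without control replicate 2) to 0.5979 and was -0.0042 without vostok replicate 4. Obp56a turned to 0.14 with the hemocyte covariate and 0.42 without control replicates 1 and 3 together. Beyond the filters and fewer samples, the cause was not tested. Scaling moved the median of all genes by under 0.1 on the log2 scale. Depth limits members under the floor of 3 counts per library.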
